A study of Mus musculus with 9 samples.

Results

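The genes described here are 7 genes of cholesterol synthesis and its control: the enzyme genes Hmgcs1, Idi1, Fdps, Sqle and Cyp51 and the regulator genes Srebf2 and Srebf1. They were chosen by name, and each is 1 row of the deposited gene table. That table lists 55414 genes, of which 25128 were tested, all 7 among them. The table comes from mouse round spermatids (RS), the haploid germ cells that follow meiosis, and measures polyadenylated RNA by sequencing. The study asked how gene expression in these cells responds when the amount of 2-hydroxyglutarate (2HG) is changed.

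All 9 libraries were made from testis cells labelled WT and incubated for 24 h in a medium with lactate, pyruvate and dialyzed serum, in the presence of 0.15% DMSO. The vehicle group (libraries 1, 2 and 3) received DMSO alone. The oxamate group (libraries 4, 5 and 6) received 24 mM oxamate, which inhibits lactate dehydrogenase (LDH), an enzyme that can also form L-2HG. The third group (libraries 7, 8 and 9) received 24 mM oxamate with 0.3 mM octyl-L2HG, an esterified L-2HG that crosses the cell membrane. Per the study's methods, the cells were sorted by tdTomato fluorescence and cell size from adult mice in which Stra8-iCre switches on a CAG-driven tdTomato reporter in the germ line. The label WT does not mention that reporter. The labels do not say whether the libraries of a group came from separate animals or cultures, so the p-values measure only the spread between these libraries, which may be technical. No group received octyl-L2HG without oxamate.

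Cholesterol is built from acetyl-CoA through mevalonate. HMGCS1 makes the mevalonate precursor HMG-CoA, IDI1 and FDPS form the isoprenoid farnesyl diphosphate, and SQLE and CYP51 act on squalene and lanosterol. The transcription factors SREBP-2 (gene Srebf2), which acts mainly on sterol genes, and SREBP-1 (Srebf1), which acts mainly on fatty acid genes, are held in the endoplasmic reticulum with SCAP and INSIG while sterol is plentiful. When sterol is low, they move to the Golgi and are cut free by the site-1 and site-2 proteases. The product of CYP51 is known as a meiosis-activating sterol. Germ cells of the testis make a short form of SREBP-2 that does not need this release. Counts per gene cannot separate that form, or SREBP-1a from SREBP-1c.

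SREBP proteins bind a sterol regulatory element, and sterol genes often carry a site for NF-Y and a site for CREB family factors nearby. The upstream sequences of 4 of the 7 genes are shown so that these letters can be seen beside the values. Hmgcs1 and Srebf2 are the genes that rose with oxamate, Cyp51 is the enzyme with a known CRE in germ cells, and Idi1 was called in no comparison. The sequences are the 250 bases before the annotated start, from RefSeq on GRCm38.p6, written 5′ to 3′ along the gene. Capitals mark the core of the sterol regulatory element (TCACNCCAC), the CRE core (TGACG) and the NF-Y box (CCAAT), each on either strand.
Hmgcs1 (chr13:119690101-119690350, plus strand): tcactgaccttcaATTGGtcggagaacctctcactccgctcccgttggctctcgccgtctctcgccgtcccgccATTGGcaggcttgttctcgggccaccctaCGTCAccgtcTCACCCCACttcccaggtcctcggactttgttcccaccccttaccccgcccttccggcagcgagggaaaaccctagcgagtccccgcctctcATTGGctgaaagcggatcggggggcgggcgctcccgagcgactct
Srebf2 (chr15:82147019-82147268, plus strand): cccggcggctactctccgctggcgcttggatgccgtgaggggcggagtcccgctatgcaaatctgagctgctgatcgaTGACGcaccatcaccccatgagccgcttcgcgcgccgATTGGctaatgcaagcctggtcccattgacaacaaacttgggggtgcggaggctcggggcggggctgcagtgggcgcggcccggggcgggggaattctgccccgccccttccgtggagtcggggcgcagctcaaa
Cyp51 (chr5:4104698-4104947, minus strand): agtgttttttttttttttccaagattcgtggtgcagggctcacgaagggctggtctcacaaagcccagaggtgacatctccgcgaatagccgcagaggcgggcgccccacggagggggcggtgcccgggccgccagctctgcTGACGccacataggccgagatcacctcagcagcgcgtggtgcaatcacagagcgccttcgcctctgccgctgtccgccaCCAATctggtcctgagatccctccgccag
Idi1 (chr13:8885356-8885605, plus strand): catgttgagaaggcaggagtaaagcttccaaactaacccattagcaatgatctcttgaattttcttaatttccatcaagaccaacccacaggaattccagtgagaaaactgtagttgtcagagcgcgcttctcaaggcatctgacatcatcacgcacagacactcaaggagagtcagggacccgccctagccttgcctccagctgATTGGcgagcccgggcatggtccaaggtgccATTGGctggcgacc

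Of the 7 genes, 5 had an entry in the RefSeq promoter table, with 7 windows in all because Srebf1 has 3 starts. Sqle and Fdps had no entry. Each window spans 300 bases, of which the upstream bases are shown above. The core of the sterol regulatory element was found in 1 of the 7 windows, that of Hmgcs1, at positions -137 to -129 from the start, as TCACCCCAC. Of all 32851 mouse windows in the table, 1.24% held this motif on either strand. The CRE core lay in 3 of the 7 windows, those of Hmgcs1, Cyp51 and Srebf2, against 20.8% of all windows, and the full CRE (TGACGTCA, in 1.79% of all windows) and the E-box (CACGTG, in 7.15%) in none of the 7 windows. An NF-Y box was present in 6 of the 7 windows, with 4 copies in that of Hmgcs1, against 37.4% of all windows. The GC box (GGGCGG) was also present in 6 of the 7 windows, against 35.7% of all windows. For each box, the window without it is 1 of the 3 of Srebf1. Only exact matches to these letters were counted, so a window without a motif may still hold a near match. The matches describe letters, and none was tested as a binding site.

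The depth was 32339533 to 39888396 counted reads per library. The cells were checked against markers. The summed level of 10 round spermatid markers was 3366 to 3610 CPM (reads scaled to the size of the library) in the vehicle libraries, 3193 to 3373 with oxamate and 2802 to 2855 with both compounds, so that it was lowest with both. The members of this sum did not move together. With both compounds against vehicle, Prm1 stood at -0.77 and Acrv1 at 0.25 on the log2 scale. The sum of 10 spermatocyte markers was 634 to 714, 607 to 664 and 617 to 648 CPM in the 3 groups. The sum of 8 spermatogonium markers was 17.1 to 19.2 CPM in vehicle, 20.7 to 21.4 with oxamate and 18.1 to 20.2 with both, so that every oxamate library lay above the other 6. The sum of 5 peritubular myoid cell markers was also highest with oxamate, at 2.57 to 2.72, 2.83 to 3.18 and 2.23 to 2.60 CPM. The sum of 6 macrophage markers was 4.29 to 4.93 CPM in vehicle, 3.33 to 3.79 with oxamate and 2.89 to 3.50 with both, and Lyz2 was at 0 in all. Sertoli cell markers (8 genes, with Fshr at 0) summed to 0.866 to 1.49 CPM and Leydig cell markers (7 genes) to 0.647 to 1.12 CPM over all libraries. Whether these shifts in marker levels have a part in the results was not tested. A principal component analysis placed oxamate library 4 apart from the other oxamate libraries, at 0.99 on the first component against -7.29 and -5.67 and at 2.91 on the second against -12.2 and -14.5. Vehicle library 1 stood apart from its group on the second component, at 14.01 against 4.37 and 1.03. For the 7 genes, a call that changed without either library is given beside the gene.

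Within the untreated cells, the 7 genes spanned a wide range of levels. Levels between genes are given as CPM per kb of exon, with exon lengths taken from an annotation of GRCm38, in which 99.6% of the tested genes had the same identifier. Sqle, which makes squalene epoxide, was highest at 49.2 ± 0.846 (SD, n = 3) and stood at the 94.1 percentile of the genes tested. Cyp51 (18.9 ± 0.616) and Idi1 (17.7 ± 1.30) came next, and their vehicle libraries overlapped, so that their order is not resolved. Hmgcs1 followed at 7.60 ± 0.186 and Srebf2 at 4.77 ± 0.283. Fdps, at 0.876 ± 0.130, was well below the other 4 enzymes, and Sqle exceeded it 56.1-fold. Srebf1 was the lowest at 0.194 ± 0.0277, and Srebf2 exceeded it 24.6-fold. Apart from Cyp51 and Idi1, the vehicle libraries of neighbours in this order did not overlap.

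Across the whole synthesis list of 21 enzymes, the plot of levels along the pathway shows the same unevenness. Fdft1, the squalene synthase that follows FDPS, was the most abundant at 198 ± 5.22 CPM per kb in vehicle, 226-fold above Fdps and 4.02-fold above Sqle. At the other end of the range was Dhcr7, which acts at the end of the pathway, at 0.0424 ± 0.00492. These are levels of RNA in a mixed lysate, in which fewer cells of a type and less RNA per cell cannot be told apart.

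In the test of any difference among the 3 groups, 4 of the 7 genes passed the threshold: Srebf1 (adjusted p = 8.74e-05 by edgeR's quasi-likelihood test), Srebf2 (0.0015), Fdps (0.0112) and Hmgcs1 (0.027). Over all genes tested the share was 19.8%, and it was 33.5% among genes averaging 100 normalized counts or more, a level that 6 of the 7 genes reach. Cyp51 (0.0944), Sqle (0.623) and Idi1 (0.828) did not pass. The normalized counts below are reads divided by the size factor of the library, as deposited, and fold changes with their adjusted p-values come from that edgeR test over all genes. The 3 comparisons share libraries, so their values stand side by side and are not independent.

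**Figure D1:**
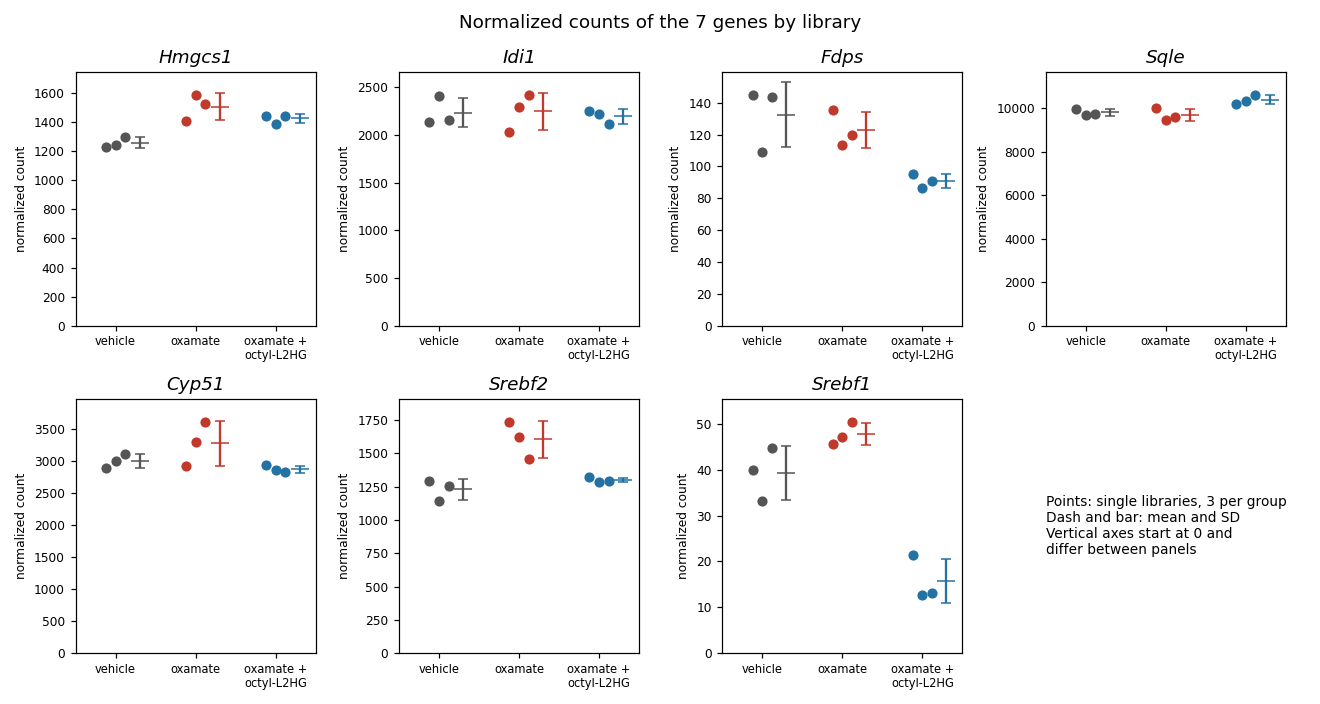
Normalized count of each gene in each library, with the mean and SD of the group beside the points (n = 3). Vertical axes start at 0 and differ between panels. Srebf2 was highest in the oxamate libraries, Srebf1 and Fdps were lowest with both compounds, and the Idi1 groups overlapped.

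Srebf2, which encodes SREBP-2, rose with oxamate and was back near the vehicle level when octyl-L2HG was added. Its normalized counts were 1295, 1144 and 1254 in the vehicle libraries, 1735, 1625 and 1458 with oxamate, and 1320, 1289 and 1296 with both compounds. Every oxamate library lay above all 6 of the others, while the vehicle and the combined groups overlapped. The spermatogonium and peritubular myoid marker sums were likewise highest in the oxamate libraries, and their part in this course was not tested. The rise with oxamate was 1.31-fold (log2 0.39, SE 0.078, adjusted p = 0.00361), and the fall on adding octyl-L2HG was 1.26-fold (log2 -0.33, SE 0.078, adjusted p = 0.00788). With both compounds against vehicle the difference was 0.06 on the log2 scale, with a 95% interval of -0.10 to 0.22 and an adjusted p of 0.68. The rise was called in all 15 alternative analyses. The fall was called in 14 of 15 and was lost without library 8 (log2 -0.32, adjusted p = 0.0501). Without oxamate library 4 both were called, at 0.32 (adjusted p = 0.00149) and -0.27 (adjusted p = 0.00578) on the log2 scale.

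Srebf1, which encodes SREBP-1, had the widest fold change of the 7 genes, and in few reads. Normalized counts were 40.0, 33.2 and 44.9 in vehicle, 45.7, 47.2 and 50.4 with oxamate, and 21.3, 12.7 and 13.1 with both compounds. These rest on 35 to 49 reads per library in the first 2 groups and 11 to 19 in the last. The groups without octyl-L2HG did not overlap with the group that received it. With both compounds Srebf1 was 3.10-fold lower than with oxamate alone (log2 -1.63, SE 0.23, adjusted p = 9.82e-05) and 2.55-fold lower than in vehicle (log2 -1.35, SE 0.24, adjusted p = 0.000332). Both falls were called in all 15 alternatives, from -1.90 to -1.51 and from -1.62 to -1.23 on the log2 scale. Oxamate alone gave 0.28 with a 95% interval of -0.11 to 0.67 (adjusted p = 0.491). Both regulator genes were thus lower with octyl-L2HG than with oxamate alone, and of the 2 it was Srebf1 that was also called below vehicle.

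Among the 5 enzymes, Hmgcs1 was the one called between oxamate and vehicle. Its normalized counts were 1229, 1239 and 1299 in vehicle, 1404, 1584 and 1524 with oxamate, and 1441, 1388 and 1440 with both. All 6 treated libraries lay above the vehicle libraries, and the 2 treated groups overlapped. The rise with oxamate was 1.20-fold (log2 0.26, SE 0.070, adjusted p = 0.0289). It was called in 8 of 15 alternatives and was lost without library 1 (adjusted p = 0.0882), 2 (0.111), 3 (0.0652), 5 (0.159), 6 (0.0737) or 8 (0.0586), with log2 values of 0.23 to 0.31 over the libraries left out. It was also lost when only the 2 groups were fitted (adjusted p = 0.101). Without oxamate library 4 it was 0.31 (adjusted p = 0.00155). With both compounds against vehicle Hmgcs1 stood at 0.16 (95% interval 0.01 to 0.31, adjusted p = 0.13), which passed without library 4 (adjusted p = 0.0478), and against oxamate at -0.11 (-0.25 to 0.04, adjusted p = 0.405).

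Fdps, the farnesyl diphosphate synthase gene, was lower when octyl-L2HG was present. Normalized counts were 145, 109 and 144 in vehicle, 135, 114 and 119 with oxamate, and 95.5, 86.5 and 90.8 with both compounds. All 3 libraries with both compounds lay below the other 6, whereas vehicle and oxamate overlapped. With both compounds Fdps was 1.48-fold lower than in vehicle (log2 -0.57, SE 0.14, adjusted p = 0.00545), a fall called in all 15 alternatives. Against oxamate it was 1.38-fold lower (log2 -0.46, SE 0.14, adjusted p = 0.0364), but this was called in 6 of 15 alternatives. It was lost without library 3 (adjusted p = 0.0521), 4 (0.0774), 5 (0.0551), 6 (0.0569), 7 (0.085), 8 (0.136) or 9 (0.102), with log2 values from -0.52 to -0.38, and with DESeq2 (0.0709). Oxamate against vehicle gave -0.11 (95% interval -0.38 to 0.16, adjusted p = 0.75).

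Cyp51, lanosterol 14α-demethylase, passed in no comparison of the fit of all 9 libraries with TMM scaling, and its oxamate libraries were spread. Normalized counts were 2895, 3005 and 3110 in vehicle, 2919, 3300 and 3608 with oxamate, and 2933, 2855 and 2828 with both. Oxamate library 4 sat among the vehicle values and the other 2 oxamate libraries above them. The log2 difference was 0.13 (95% interval -0.02 to 0.28, adjusted p = 0.385) for oxamate against vehicle, -0.21 (-0.37 to -0.06, adjusted p = 0.0598) on adding octyl-L2HG, and -0.09 (-0.24 to 0.06, adjusted p = 0.472) for both compounds against vehicle. Without library 4 the first was 0.20 (adjusted p = 0.0312) and the second -0.29 (adjusted p = 0.000728). With total counts as the scaling and all 9 libraries, the second also passed (log2 -0.26, adjusted p = 0.0237).

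Sqle and Idi1 passed in no comparison under any of the alternatives. Normalized counts of Sqle were 9981, 9688 and 9728 in vehicle, 9988, 9468 and 9588 with oxamate, and 10199, 10347 and 10604 with both compounds. The libraries with both compounds lay above the other 6, but the fitted differences were 0.08 against oxamate (95% interval -0.05 to 0.20, adjusted p = 0.509) and 0.06 against vehicle (-0.06 to 0.19, adjusted p = 0.543). For oxamate against vehicle the interval was -0.14 to 0.11 (adjusted p = 0.955). Idi1, the isopentenyl diphosphate isomerase gene, had normalized counts of 2136, 2405 and 2154 in vehicle, 2036, 2291 and 2419 with oxamate, and 2248, 2222 and 2110 with both. All 3 groups overlapped, and the widest of its 3 intervals ran from -0.22 to 0.09 on the log2 scale, for octyl-L2HG added to oxamate. These intervals limit any change of Sqle and Idi1 and do not show that there was none.

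**Figure D2:**
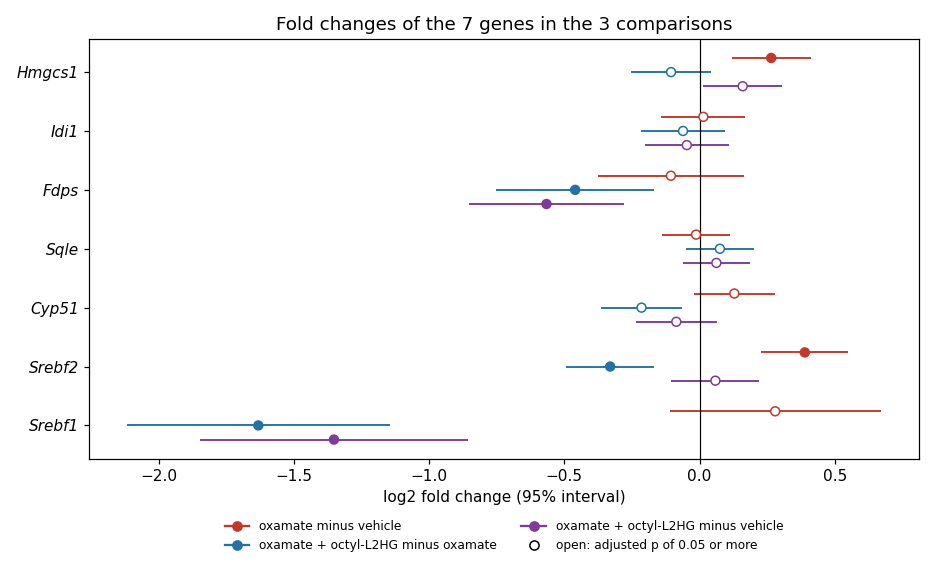
Log2 fold change of the 7 genes in the 3 comparisons, with 95% intervals. Filled points have an adjusted p under 0.05 in the edgeR fit. Srebf2 is filled on opposite sides of 0 for oxamate (0.39) and for octyl-L2HG added to oxamate (-0.33), and the 2 filled Srebf1 points lie at -1.63 and -1.35.

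Counted together, oxamate against vehicle called 2 of the 7 genes, both higher (Srebf2 and Hmgcs1), where 5.19% of all genes tested and 9.67% of those averaging 100 normalized counts or more were called, 3.97% higher and 1.22% lower. Adding octyl-L2HG to oxamate called 3, all lower (Srebf1, Srebf2 and Fdps), against 11.2% and 19.8%, with 3.18% higher and 8.06% lower. Both compounds against vehicle called 2, both lower (Srebf1 and Fdps), against 18.0% and 29.5%, with 7.48% higher and 10.6% lower. The median log2 difference of the 7 genes was 0.13, -0.21 and -0.05 in these comparisons, and that of all genes was -0.01, -0.04 and -0.05. Across the 9 libraries, the log2 CPM of the 7 genes did not move as 1 block. Pearson's r ran from 0.87 for Fdps with Srebf1 to -0.84 for Sqle with Cyp51, and Srebf2 with Hmgcs1 gave 0.69, as a description over libraries that share the treatments.

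Fold changes moved with the exon length of the gene, taken over all its transcripts. Over 10696 genes averaging 100 normalized counts or more, Spearman's rho between exon length and log2 fold change was 0.31 for oxamate against vehicle, 0.17 on adding octyl-L2HG and 0.35 for both against vehicle. The exon length of Srebf2 was 7184 bases, that of Srebf1 5634, of Sqle 5546, of Hmgcs1 4594, of Cyp51 4415, of Fdps 4208 and of Idi1 3505. The part of length in these values was not tested.

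Of the 21 enzymes of the synthesis list, 3 (14.3%) were called with oxamate against vehicle, all higher, where 5.19% of all genes tested and 9.67% of those averaging 100 normalized counts or more were called: Hmgcs1, Lss (lanosterol synthase) and Nsdhl (a sterol dehydrogenase that follows CYP51). Lss went from 221 ± 2.96 to 285 ± 21.6 normalized counts (log2 0.37, adjusted p = 0.0283) and Nsdhl from 123 ± 13.8 to 165 ± 5.80 (log2 0.42, adjusted p = 0.0439). Both calls lay near the threshold. With a library left out, the log2 values stayed at 0.31 to 0.42 for Lss and 0.33 to 0.48 for Nsdhl. Lss was lost without library 1 (adjusted p = 0.0596), 2 (0.107), 3 (0.0929), 4 (0.0513) or 6 (0.0571). Nsdhl was called in 4 of 15 alternatives. It passed without library 4 (adjusted p = 0.0306) and was lost without library 1 (0.184), 2 (0.114), 3 (0.0541), 5 (0.0875), 6 (0.119), 7 (0.0598), 8 (0.0535) or 9 (0.0628). The list's median log2 change was -0.01, as was that of all genes.

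On adding octyl-L2HG to oxamate, 1 of the 21 enzymes rose, Sc5d (sterol C5-desaturase), and 1 fell, Fdps, a share of 9.52% against 11.2% of all genes tested and 19.8% of the more abundant ones. Sc5d went from 273 ± 21.7 to 358 ± 10.6 normalized counts (log2 0.37, adjusted p = 0.0129), and was lost without library 8 (adjusted p = 0.0587) or 9 (0.0629). Both compounds against vehicle called 3 of 21 (14.3%, against 18.0% and 29.5%), with 2 higher and 1 lower, among them Lss (log2 0.37, adjusted p = 0.0122) and Fdps. Lss was lost without library 7 (adjusted p = 0.0755).

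Genes that hold, release or degrade the SREBP machinery moved in both directions. Of 15 in this list, oxamate called 2 (13.3%, against 5.19% of all genes tested and 9.67% of the more abundant ones averaging 100 normalized counts or more), Srebf2 and Mbtps1, both higher. Mbtps1 encodes the site-1 protease that makes the first cut in SREBP. Its normalized counts were 301, 270 and 312 in vehicle, 479, 448 and 422 with oxamate, and 427, 427 and 394 with both, so that all 6 treated libraries lay above vehicle. The rise was 1.53-fold with oxamate (log2 0.62, adjusted p = 0.000226) and 1.39-fold with both compounds (log2 0.47, adjusted p = 0.000792), and was called in all 15 alternatives of each. The difference of Mbtps1 on adding octyl-L2HG did not pass (log2 -0.14, 95% interval -0.33 to 0.04, adjusted p = 0.369). The median log2 change of the list with oxamate was 0.16.

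Scap, the escort protein gene, fell with both compounds against vehicle. Normalized counts were 97.7, 105 and 113 in vehicle, 82.9, 91.4 and 91.0 with oxamate, and 58.4, 76.1 and 75.8 with both. The groups stood in this order without overlap, and the fall against vehicle was 1.52-fold (log2 -0.60, SE 0.14, adjusted p = 0.00449), called in all 15 alternatives. The 2 steps were not called, at -0.25 (95% interval -0.53 to 0.04, adjusted p = 0.371) for oxamate and -0.35 (-0.66 to -0.05, adjusted p = 0.135) for adding octyl-L2HG. Insig1, an SREBP target whose product retains SCAP, had 17 to 39 reads per library and was called in no comparison. Its log2 difference was 0.33 (95% interval -0.15 to 0.82) with oxamate and -0.45 (-0.95 to 0.06) on adding octyl-L2HG. For both compounds against vehicle it was -0.11 (-0.63 to 0.40).

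Octyl-L2HG added to oxamate called 5 of the 15 (33.3%, against 11.2% of all genes tested and 19.8% of the more abundant ones, to which 11 of the 15 belong), with 2 higher (Erlin1 and Erlin2) and 3 lower, Srebf1 and Srebf2 among them. The erlins are membrane proteins of a route by which proteins of the endoplasmic reticulum are degraded. Erlin2 rose 1.24-fold (log2 0.31, adjusted p = 0.00697) and Erlin1 1.20-fold (log2 0.26, adjusted p = 0.0298). Erlin2 was lost without library 5 (adjusted p = 0.0519) and Erlin1 without library 5 (0.089), 6 (0.132), 7 (0.0947), 8 (0.0842) or 9 (0.113). The list's median log2 change was -0.14.

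With both compounds against vehicle 7 of the 15 were called (46.7%, against 18.0% of all genes tested and 29.5% of those averaging 100 normalized counts or more), with 4 higher (Mbtps1, Erlin1, Erlin2 and Faf2) and 3 lower (Srebf1, Scap and Ubxn8). Erlin1 (log2 0.35, adjusted p = 0.00242) and Erlin2 (log2 0.34, adjusted p = 0.00162) were called in all 15 alternatives. Faf2 and Ubxn8 encode further parts of the degradation route. Faf2 rose 1.17-fold (log2 0.22, adjusted p = 0.0419) and was lost without library 2 (adjusted p = 0.132), 3 (0.151), 7 (0.195) or 8 (0.156). Ubxn8 fell 1.20-fold (log2 -0.27, adjusted p = 0.0106) and was lost without library 1 (adjusted p = 0.0502) or 8 (0.0654). The list's median was 0.06 on the log2 scale.

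**Figure D3:**
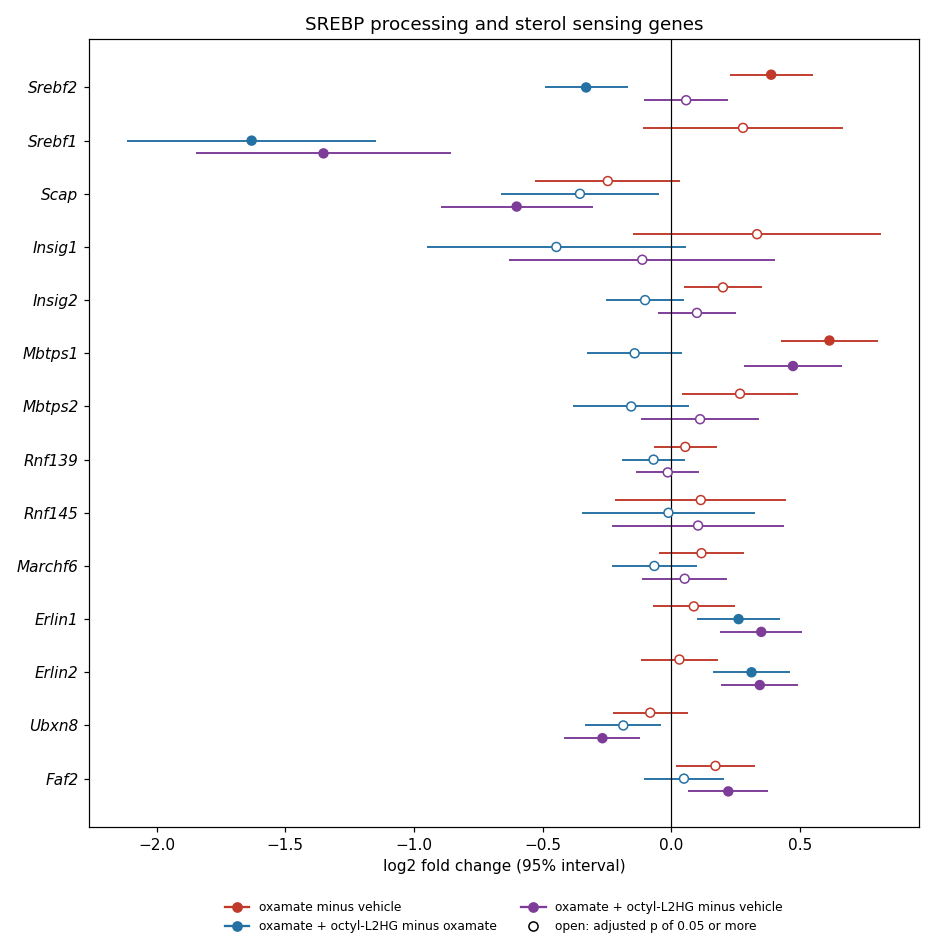
Log2 fold change of genes of SREBP processing and sterol sensing in the 3 comparisons, with 95% intervals. Filled points have an adjusted p under 0.05 in the edgeR fit. Mbtps1 is filled at 0.62 and 0.47, and Srebf1 reaches furthest below 0.

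Among 16 genes for the uptake and transport of sterol, oxamate raised 2, Osbpl2 and Lrp8 (12.5%, against 5.19% of all genes tested and 9.67% of the more abundant ones). Osbpl2, an oxysterol binding protein of the endoplasmic reticulum and plasma membrane, rose from 466 ± 15.2 to 719 ± 18.4 normalized counts (log2 0.63, adjusted p = 2.74e-05) and stayed at 724 ± 24.9 with both compounds (log2 0.61 against vehicle, adjusted p = 7.87e-06). Lrp8, an apolipoprotein E receptor, followed the course of Srebf2, at 911 ± 120, 1400 ± 165 and 983 ± 52.9 normalized counts in the 3 groups (log2 0.62, adjusted p = 0.000329 for oxamate, and -0.54, adjusted p = 0.00084 for adding octyl-L2HG).

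Scarb1, the receptor for high density lipoprotein, was lower with octyl-L2HG than in either of the other groups. Its normalized counts were 1401 ± 36.2 in vehicle, 1369 ± 37.6 with oxamate and 1032 ± 49.4 with both (log2 -0.43 against oxamate, adjusted p = 0.000401, and -0.46 against vehicle, adjusted p = 7.85e-05). For oxamate against vehicle it stood at -0.03 (95% interval -0.17 to 0.12, adjusted p = 0.895). The calls of Osbpl2, Lrp8 and Scarb1 given here were made in all 15 alternatives. Adding octyl-L2HG lowered 3 of the 16 in all (18.8%, against 11.2% and 19.8%), a share near that of the more abundant genes. The remaining gene was Osbp, an oxysterol binding protein named after its values were seen (log2 -0.22, adjusted p = 0.0361). Osbp was lost without library 3 (adjusted p = 0.0676), 5 (0.11), 6 (0.121), 8 (0.151) or 9 (0.174). Both compounds against vehicle raised 1, Osbpl2, and lowered 1, Scarb1 (12.5%, against 18.0% and 29.5%), where DESeq2 called 3 higher and 1 lower. The list's median log2 change was 0.13, 0.02 and 0.08 in the 3 comparisons.

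Of 14 genes for efflux, storage and oxysterols, 11 were tested. With oxamate 2 of the 11 were called (18.2%, against 5.19% of all genes tested and 9.67% of the more abundant ones), and 1 by DESeq2. Oxamate raised Abca7, a lipid transporter, from 175 ± 18.6 to 263 ± 37.7 normalized counts (log2 0.59, adjusted p = 0.00313) and lowered Abca1, the cholesterol exporter, which was named after its values were seen (log2 -1.10, adjusted p = 0.033, at 5.72 to 33.9 normalized counts in these 6 libraries). Abca1 was lost without library 2 (adjusted p = 0.0921), 3 (0.122), 4 (0.106), 7 (0.0517) or 9 (0.052), and without library 4 its log2 value was -0.72. Adding octyl-L2HG, where 11.2% of all genes tested were called, called 0 of the 11 by edgeR, 0 at an unadjusted p under 0.05 and 0 by DESeq2. With both compounds against vehicle 3 were higher (27.3%, against 18.0% and 29.5%). They were Abca7 (log2 0.54, adjusted p = 0.00216), Soat1, which stores cholesterol as esters (log2 0.38, adjusted p = 0.00994, lost without library 9 with 0.0576), and Abcg1, a sterol exporter named after its values were seen (log2 1.06, adjusted p = 0.0137, lost without library 8 with 0.0521 or 9 with 0.0986). The list's medians were -0.13, 0.06 and -0.01.

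Of 17 fatty acid genes, the group that SREBP-1 is known for, 16 were tested. With both compounds against vehicle, where 18.0% of all genes tested were called, 0 of the 16 were called by edgeR, 2 passed at an unadjusted p under 0.05, both higher, and DESeq2 called 0. Their median log2 change was 0.15. Oxamate raised 2 of the 16 (12.5%, against 5.19% of all genes tested and 9.67% of the more abundant ones), and DESeq2 called 1. Lpin1, a phosphatidate phosphatase, went from 16322 ± 1222 to 19352 ± 730 normalized counts (log2 0.25, adjusted p = 0.0197) and was lost without library 1 (adjusted p = 0.0769), 2 (0.125), 5 (0.0864) or 6 (0.068). Acacb, an acetyl-CoA carboxylase named after its values were seen, rose from 8.87 ± 0.618 to 27.8 ± 3.22 (log2 1.65, adjusted p = 0.000603). Acacb was also the 1 of 16 (6.25%, against 11.2%) that was lower on adding octyl-L2HG, at 12.4 ± 2.12 (log2 -1.19, adjusted p = 0.00415). The list's medians were 0.14 with oxamate and -0.05 on adding octyl-L2HG.

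The isoprenoid branch leaves the pathway at the product of FDPS. Of 13 listed genes 12 were tested, and oxamate against vehicle, where 5.19% of all genes tested were called, called 0 by edgeR, 0 at an unadjusted p under 0.05 and 0 by DESeq2. Adding octyl-L2HG raised 2 by edgeR (16.7%, against 11.2% of all genes tested and 19.8% of the more abundant ones) and 3 by DESeq2. Fnta, a farnesyltransferase subunit, rose from 4007 ± 145.5 to 4911 ± 41.6 normalized counts (log2 0.27, adjusted p = 0.00981) and was lost without library 5 (adjusted p = 0.0663) or 9 (0.0504). Pggt1b, a subunit of the enzyme that attaches geranylgeranyl groups to proteins, rose from 113 ± 8.59 to 159 ± 21.5 (log2 0.47, adjusted p = 0.0364) and was lost without library 5 (adjusted p = 0.0891), 8 (0.157) or 9 (0.152). Against vehicle, both compounds called 1 by edgeR (8.33%, against 18.0%), Fnta (log2 0.35, adjusted p = 0.000529), and 2 by DESeq2, both higher. The list's medians were -0.04, 0.08 and -0.04.

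The genes whose pattern was most like that of Srebf2 or Hmgcs1 lay outside these lists. Among genes averaging 100 normalized counts or more, the highest Pearson's r with the log2 CPM of Srebf2 over the 9 libraries was that of Smpd3 (0.99), Dusp4 (0.98) and Taf5l (0.98). For Hmgcs1 it was that of Mtmr12 (0.98), Cpd (0.98) and Ccnt1 (0.97). These were picked as the closest of 10715 genes and share the libraries and treatments, so the values are a description.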

How the data were processed

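RNA of mouse RS was sequenced in 9 libraries, 3 per group (vehicle, oxamate at 24 mM, or this with octyl-L2HG at 0.3 mM), with groups taken from the sample labels. Per the labels and the study's methods, the authors trimmed reads (cutadapt 2.10), aligned them with TopHat2 2.1.1 to GRCm39 and counted reads per gene with HTSeq 2.01 before deposit. The kit is stranded, but the strand setting of the counting is not given in the sources used here. They deposited raw counts and a normalized signal, which is the count divided by the library's DESeq2 1.36.0 size factor. Genes without values (6250 of 55414) were left out.

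The 25128 genes with at least 10 counts in sum were tested in 1 fit of all libraries with edgeR 4.0.16 (R 4.3.3; quasi-likelihood, robust, TMM) and Benjamini-Hochberg adjustment over all genes, with a threshold of 0.05. Each quoted interval is the fitted value with its 95% limits. The test was checked on simulated counts of 24600 genes. For oxamate against vehicle it recovered 100 of 100 simulated 2-fold changes but 65 of 100 of 1.3-fold, with 11 unchanged genes called. For adding octyl-L2HG it recovered 100 and 62 of 100, with 10 unchanged genes called. The changes were placed only in genes above a minimum expected count. An uncalled gene of that kind may still have changed by about 1.3-fold. Genes of fewer reads, such as Srebf1 and Insig1, were not covered, and larger changes of these may go uncalled. The 15 alternatives were DESeq2 1.42.0, scaling by size factors or by total counts, no filter, edgeR's filterByExpr, a fit to the compared groups alone, and leaving out each of the 9 libraries. The 7 genes were named by symbol. Also named were Insig1 and Scap, other called genes of the synthesis and SREBP processing lists, the 2 largest called changes in each other list among genes averaging 100 normalized counts or more, and the 3 genes closest to Srebf2 and to Hmgcs1. The genes and lists were chosen with earlier results of these data known. Some genes that the rule covers are not reported here. Lists are described by counts and medians, with no test over a list. Acacb, Abca1, Abcg1 and Osbp were named after their values were seen. Promoter windows came from RefSeq and were searched with Python 3.11.15. Exon lengths came from another annotation, and counting error is larger for genes of few reads.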

Additional observations from a re-analysis of the deposited data

How the results depend on the processing

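The choice of scaling, filter or test moved the split between higher and lower calls over all genes. Adding octyl-L2HG to oxamate gave 798 genes higher and 2025 lower with TMM, 1106 and 1831 with DESeq2's size factors, 1234 and 1637 with DESeq2, 421 and 2516 with total counts, 1429 and 1797 without a filter and 1167 and 1938 with filterByExpr. Both compounds against vehicle gave 1879 and 2655 with TMM, 2206 and 2493 with size factors, 2134 and 2020 with DESeq2, 1231 and 3367 with total counts, and 2690 and 2421 without a filter. Total counts moved the median of all genes to -0.11 in that comparison. The count for oxamate against vehicle was 1303, against 723 when only those groups were fitted and 669 to 2305 with a library left out. The counts for the other comparisons were 2823 (1385 to 4417) and 4534 (2961 to 6182), and the highest of each range was without oxamate library 4. The cause was not tested.

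Of the 7 genes, 4 passed the test of any difference, and 2 to 5 with a library left out. For oxamate against vehicle 2 were called, 1 when only those groups were fitted and 1 to 3 with a library left out. On adding octyl-L2HG 3 were called, and 1 to 3 with a library left out. Of the synthesis list, 3 were called with oxamate, 0 when only those groups were fitted and 0 to 3 with a library left out. On adding octyl-L2HG 2 were called, 1 with DESeq2, 1 without a filter and 0 to 2 with a library left out. Differences near 0 changed sign: for oxamate against vehicle Sqle (log2 -0.042 to 0.0030 with a library left out) and Idi1 (-0.0042 with total counts, -0.036 to 0.076 with a library left out). With total counts, both compounds against vehicle gave Sqle -0.00099 and Srebf2 -0.0045. With a library left out, both compounds against vehicle gave -0.078 to 0.015 for Idi1 and -0.33 to 0.10 for Insig1. None of these was called. Besides the calls lost above, fitting only the groups compared ended those of Lss (adjusted p = 0.0715), Nsdhl (0.0865), Lpin1 (0.0879) and Abca1 (0.0738) with oxamate and Osbp (0.0868) on adding octyl-L2HG. Total counts ended Nsdhl with oxamate (0.0599), Erlin1 (0.0686) and Pggt1b (0.0669) on adding octyl-L2HG, and Faf2 (0.132) with both compounds. DESeq2 ended Nsdhl (0.0686) and Abca1 (0.0572) with oxamate, size factors ended Osbp (0.0754), and no filter ended Fdps (0.0509) and Osbp (0.158) on adding octyl-L2HG and Ubxn8 with both compounds (0.0595). Cyp51 passed on adding octyl-L2HG with total counts (adjusted p = 0.0237), and Hmgcs1 with both compounds against vehicle when only those groups were fitted (0.046). DESeq2 gave no adjusted p for Acacb with oxamate. No paired analysis was made, because the labels do not say which libraries of different groups, if any, share a preparation of cells. Over single genes, 756 values kept direction and call, 81 lost the call, 5 gained one and 12 changed sign. Depth limits Srebf1, Insig1, Acacb and Abcg1, which rest on few reads.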
